A study of Homo sapiens with 12 samples.

Results

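The nuclear factor I (NFI) family consists of 4 transcription factor (TF) genes, NFIA, NFIB, NFIC and NFIX, chosen here by name. All 4 were among the 22784 gene symbols measured by RNA-sequencing in SK-UT-1 cells, a long-established human line from a uterine leiomyosarcoma (uLMS), the smooth muscle cancer of the uterus. Cells were exposed for 48 h to JQ1 or I-BET 762, each at 5 µM, or to vehicle (DMSO). Both compounds are bromodomain and extra-terminal inhibitors (BETis), which occupy the acetyl-lysine pocket of the chromatin readers of that protein family. JQ1 carries a thiophene ring fused to a triazolodiazepine core, whereas I-BET 762 carries a benzene ring at that place. Values were present for 3 vehicle libraries (replicates 13 to 15), 4 JQ1 libraries (17 to 20) and 3 I-BET 762 libraries (21 to 23). The other 2 of the 12 labelled libraries, vehicle 16 and I-BET 762 24, were not analysed here. All groups are the same cell line, and nothing in the labels states that the libraries of a group came from separate cultures, so the p-values measure the spread between libraries, which may be technical.

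NFI proteins bind DNA as homodimers or heterodimers through a conserved domain at the amino terminus, and their carboxyl-terminal parts, which differ more between members, activate or repress transcription. The palindrome they prefer is TTGGCNNNNNGCCAA, of which either arm, TTGGC, is bound more weakly. The genes act in late steps of differentiation: NFIA in glial cells, NFIB in lung and brain, NFIC in tooth roots and NFIX in the switch from embryonic to fetal skeletal muscle. NFIB has also been tied to metastatic spread in several tumor types. The study itself named NFIB among its metastasis-related TFs from these same libraries, so its direction below is not independent evidence.

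To show the DNA upstream of each gene, the 250 bases before a RefSeq transcription start are given, in GRCh38.p14 and 5′ to 3′ on the strand of the gene. For NFIA, NFIB and NFIX the start is that of the MANE Select transcript (the reference transcript agreed between RefSeq and Ensembl), and for NFIC it is the single start listed. Capitals mark the GC box GGGCGG or its reverse complement CCGCCC, the motif of SP1, with overlapping matches counted separately.
NFIA (chr1:61082311-61082560, plus strand): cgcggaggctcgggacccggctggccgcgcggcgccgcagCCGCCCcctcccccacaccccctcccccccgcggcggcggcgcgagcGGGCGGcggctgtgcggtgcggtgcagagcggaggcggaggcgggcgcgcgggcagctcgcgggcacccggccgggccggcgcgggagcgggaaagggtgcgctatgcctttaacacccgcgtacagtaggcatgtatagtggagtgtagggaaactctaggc
NFIB (chr9:14314142-14314391, minus strand): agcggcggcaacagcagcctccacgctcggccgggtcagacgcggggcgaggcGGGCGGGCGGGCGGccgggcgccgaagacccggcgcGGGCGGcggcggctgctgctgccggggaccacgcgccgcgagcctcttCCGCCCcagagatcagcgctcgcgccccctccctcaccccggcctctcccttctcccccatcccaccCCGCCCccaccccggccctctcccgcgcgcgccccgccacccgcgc
NFIC (chr19:3359380-3359629, plus strand): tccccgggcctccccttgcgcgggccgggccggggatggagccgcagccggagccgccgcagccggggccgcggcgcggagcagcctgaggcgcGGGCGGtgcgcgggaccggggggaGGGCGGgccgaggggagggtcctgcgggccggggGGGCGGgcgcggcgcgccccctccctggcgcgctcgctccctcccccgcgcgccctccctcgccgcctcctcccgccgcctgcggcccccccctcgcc
NFIX (chr19:12995225-12995474, plus strand): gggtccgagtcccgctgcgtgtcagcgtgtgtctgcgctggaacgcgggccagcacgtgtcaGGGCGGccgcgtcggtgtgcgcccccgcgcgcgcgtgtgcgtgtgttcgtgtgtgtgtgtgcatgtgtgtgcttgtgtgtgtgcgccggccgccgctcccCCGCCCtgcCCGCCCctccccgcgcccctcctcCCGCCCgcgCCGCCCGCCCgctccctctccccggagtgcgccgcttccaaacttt
In the windows shown, the GC box occurred 2 times before NFIA, 6 times before NFIB, 3 times before NFIC and 6 times before NFIX. Over all RefSeq windows of a gene, its count ran from 0 to 2 for NFIA (3 windows), 0 to 6 for NFIB (10 windows) and 0 to 6 for NFIX (5 windows). The windows shown for NFIA, NFIB and NFIX thus hold the highest counts of these genes. The GC box was present at least once in 42.6% of all 35116 RefSeq windows of the same length, with a median of 0 per window. With the 50 bases past the start included, the windows shown were 74.3% G or C for NFIA, 80% for NFIB, 86.3% for NFIC and 74% for NFIX. A background of windows with like G and C content was not computed, so these counts are not a trait of the NFI genes. The single NFI arm TTGGC, searched on both strands in windows reaching 50 bases past the start, was found in 1 of 3 NFIA windows, 6 of 10 NFIB windows, 0 of 1 NFIC windows and 2 of 5 NFIX windows, against 45.6% of all windows. The full palindrome was found in none of the windows of the 4 genes. These matches describe the letters of the windows and do not show binding.

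To place the 4 genes among all others, their normalized counts (read counts divided by the DESeq2 size factor of the library) were recovered from the deposited log2 values. The libraries held between 35564586 and 39658989 gene-assigned reads, and the lowest number of reads for any NFI gene was 213, for NFIC in a JQ1 library. Genes were tested with limma if 3 or more libraries reached 10 normalized counts; 14839 genes passed, among them all 4 NFI genes. A gene was called a differentially expressed gene (DEG) if its Benjamini-Hochberg adjusted p-value was below 0.05 and its change exceeded 1.5-fold.

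JQ1 lowered 3 of the 4 NFI genes as DEGs, namely NFIA, NFIB and NFIC, and I-BET 762 lowered 2, namely NFIB and NFIC. NFIX had lower means with both BETis but its change did not exceed 1.5-fold, and no NFI gene was higher as a DEG with either compound. With JQ1, 22.8% of all tested genes were DEGs with lower expression and 13.3% were DEGs with higher expression. With I-BET 762 the corresponding shares were 17.9% and 8.96%. In bulk RNA, fewer cells of a kind and less RNA per cell cannot be told apart.

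**Figure D1:**
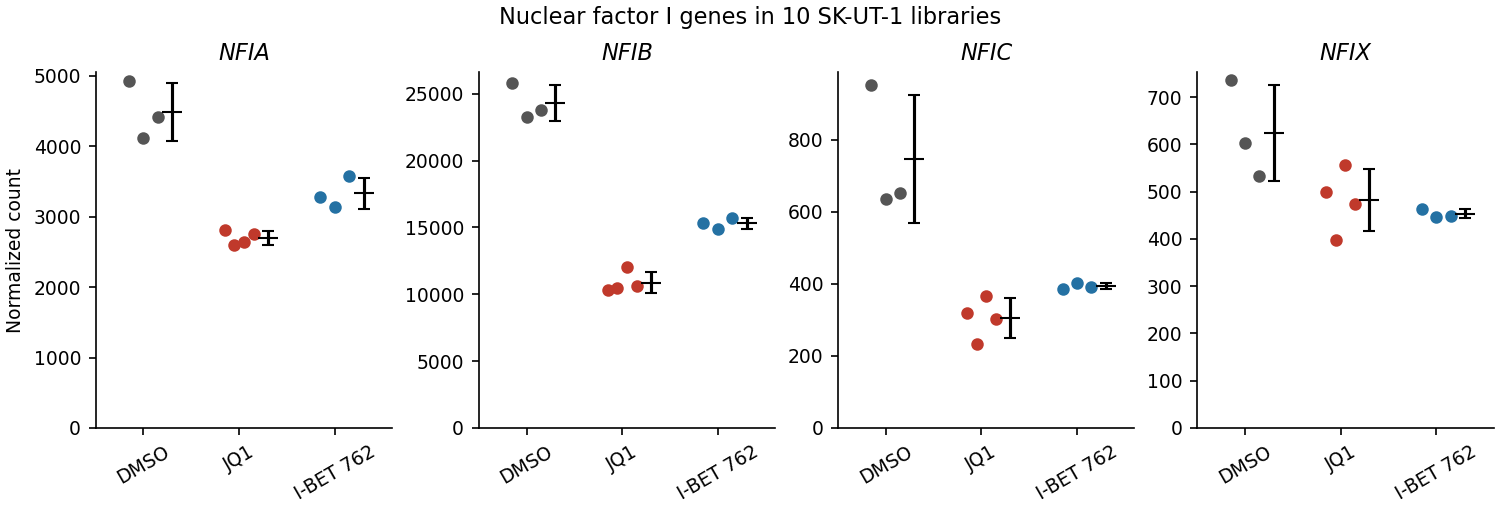
Normalized counts of the 4 NFI genes (vertical axes, linear, each from 0) in each library with vehicle (DMSO), JQ1 or I-BET 762; points are libraries, and the black marks give the mean and SD of the group (n = 3, 4 and 3). NFIA, NFIB and NFIC have no BETi library as high as the lowest vehicle library, whereas the JQ1 and vehicle libraries of NFIX overlap. The share of all tested genes that separate in this way was not computed.

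NFIB lies on chromosome 9 (ENSG00000147862, chr9:14081843-14398983 in hg38, minus strand). Its normalized counts were 25815, 23273 and 23781 in the vehicle libraries, 10331, 10468, 12017 and 10604 in the JQ1 libraries, and 15313, 14879 and 15710 in the I-BET 762 libraries. The 3 groups did not overlap: every JQ1 library lay below every I-BET 762 library, which in turn lay below every vehicle library. The share of all tested genes whose groups separate was not computed, so separation here and for the other members is description only. JQ1 lowered NFIB by a log2 fold change of -1.16 (SE 0.057, 95% interval -1.28 to -1.04, limma adjusted p = 4.35e-11). I-BET 762 lowered it by a log2 fold change of -0.67 (SE 0.061, limma adjusted p = 1.43e-07). Among all tested genes, 12.2% had a more negative change than NFIB with JQ1.

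NFIC, on chromosome 19 (ENSG00000141905, chr19:3314403-3469217, plus strand), had normalized counts of 951, 634 and 652 in the vehicle libraries, 319, 232, 367 and 303 in the JQ1 libraries, and 387, 403 and 390 in the I-BET 762 libraries. Vehicle library 13 stood above the other two vehicle libraries, and the lowest vehicle library remained above all BETi libraries. JQ1 gave the largest mean decrease of the family here, a log2 fold change of -1.28 (SE 0.145, 95% interval -1.59 to -0.97, limma adjusted p = 8.33e-07). Without vehicle library 13 this value was -1.09 (SE 0.135). I-BET 762 lowered NFIC by a log2 fold change of -0.90 (SE 0.155, limma adjusted p = 0.000118). The intervals of NFIC and NFIB with JQ1 overlap, so their order was not resolved.

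NFIA lies on chromosome 1 (ENSG00000162599, chr1:60865259-61462788, plus strand). Its normalized counts were 4936, 4116 and 4421 in the vehicle libraries, 2805, 2592, 2641 and 2758 in the JQ1 libraries, and 3283, 3136 and 3574 in the I-BET 762 libraries. As for NFIB, the 3 groups did not overlap and the I-BET 762 libraries lay between the others. The log2 fold change was -0.73 with JQ1 (SE 0.063, 95% interval -0.86 to -0.60, limma adjusted p = 3.17e-08). With I-BET 762 it was -0.43 (SE 0.067, limma adjusted p = 4.34e-05), which passed the p-value threshold but not the 1.5-fold threshold.

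NFIX, also on chromosome 19 (ENSG00000008441, chr19:12995475-13098796, plus strand), had normalized counts of 736, 603 and 534 in the vehicle libraries, 500.0, 398, 557 and 475 in the JQ1 libraries, and 464, 447 and 449 in the I-BET 762 libraries. The I-BET 762 libraries lay below all vehicle libraries, whereas JQ1 library 19 exceeded vehicle library 15. The log2 fold change was -0.37 with JQ1 (SE 0.112, 95% interval -0.61 to -0.13, limma adjusted p = 0.00777) and -0.45 with I-BET 762 (SE 0.12, limma adjusted p = 0.00422). Neither reached 1.5-fold. The value with JQ1 rested in part on vehicle library 13, without which it was -0.24 (limma adjusted p = 0.0658).

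**Figure D2:**
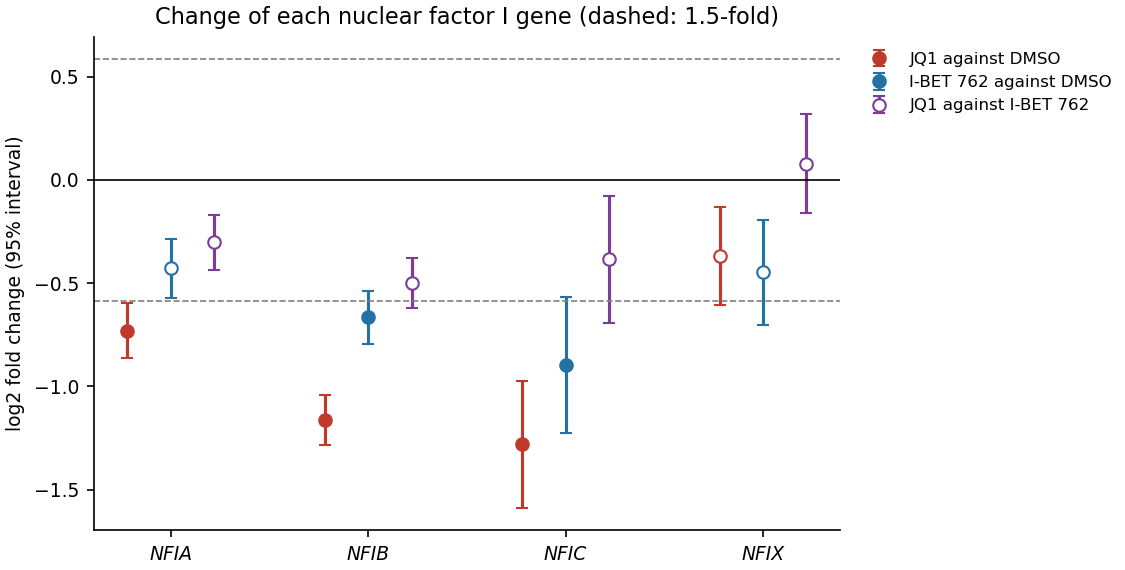
Log2 fold change (vertical axis) of the 4 NFI genes with 95% intervals from limma for JQ1 against DMSO, I-BET 762 against DMSO and JQ1 against I-BET 762; filled points are DEGs and the dashed lines mark 1.5-fold. NFIA, NFIB and NFIC lie below -0.5 with JQ1, and all 4 points of JQ1 against I-BET 762 are open.

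To compare the 2 compounds at the same dose and time, JQ1 libraries were tested directly against I-BET 762 libraries for the 4 genes, with p-values adjusted over all 14839 tested genes. No NFI gene was a DEG, where 3.59% of all tested genes were DEGs lower with JQ1 and 1.73% were DEGs higher with JQ1. NFIB was lower with JQ1 than with I-BET 762 by a log2 difference of -0.50 (95% interval -0.62 to -0.38, limma adjusted p = 1.82e-05). NFIA was lower by -0.30 (95% interval -0.44 to -0.17, limma adjusted p = 0.00235). Both differences passed the p-value threshold and stayed under 1.5-fold. NFIC differed by -0.38 (95% interval -0.69 to -0.08, limma adjusted p = 0.0618) and NFIX by 0.08 (95% interval -0.16 to 0.32, limma adjusted p = 0.641). For NFIX, the interval allows differences between the compounds of up to 0.32 in log2 units, so a like response was not shown.

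To compare the levels of the 4 genes with each other, normalized counts were divided by exon length in kb. In the vehicle libraries NFIB stood at 1903 ± 105 normalized counts per kb (SD, n = 3), which placed it 652nd of 14394 genes, with a median of 161 over all of them. NFIX followed at 96.3 ± 15.8, NFIC at 76.1 ± 18.2 and NFIA at 75.6 ± 6.97. The ranges of these last 3 levels per kb overlapped between libraries. Within each vehicle library NFIX lay above both NFIC and NFIA by this length, while the order of NFIC and NFIA changed between libraries and was not resolved. NFIB alone made up 87.3% to 89.3% of the summed family level per kb in vehicle libraries.

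The place of NFIA depended on the length used. The union of its annotated exons is 59428 bases, most of it from 1 transcript of 44880 bases that Gencode V44 classes as a retained intron, whereas its MANE Select transcript has 9229 bases. With the MANE Select length, a choice made after seeing the annotation, NFIA stood second at 487 ± 44.9 normalized counts per kb and made up 13.8% of the family, with NFIB at 80.6%. NFIB was the most abundant member under each length.

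The summed level of the family per kb was 2151 ± 144 with vehicle (SD, n = 3), 949 to 1109 with JQ1 (n = 4) and 1365 ± 35.7 with I-BET 762 (n = 3). The means with JQ1 and I-BET 762 were 46.6% and 63.5% of the vehicle mean, and the groups did not overlap. This sum takes length over all annotated exons and mostly follows NFIB. By the limma fold changes, NFIB was at 44.7% and 63.0% of vehicle with JQ1 and I-BET 762, and NFIC at 41.2% and 53.7%. NFIA was at 60.25% and 74.28%, and NFIX at 77.4% and 73.3%. Over all annotated exons, NFIX made up 3.95% to 4.90% of the family in vehicle libraries, 6.47% to 7.98% with JQ1 and 4.94% to 5.24% with I-BET 762, while the mean share of NFIB was 88.5% with vehicle, 84.9% with JQ1 and 87.8% with I-BET 762; these shares were not tested. By the same length, the levels of the 3 less abundant members did not overlap with JQ1: NFIX lay at 61.4 to 85.9 normalized counts per kb, NFIA at 43.6 to 47.2 and NFIC at 23.6 to 37.5. With the MANE Select length, NFIA instead lay above NFIX, at 281 to 304 against 66.2 to 92.6 with JQ1, and it was already apart with vehicle, at 446 to 535 against 88.8 to 122.

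**Figure D3:**
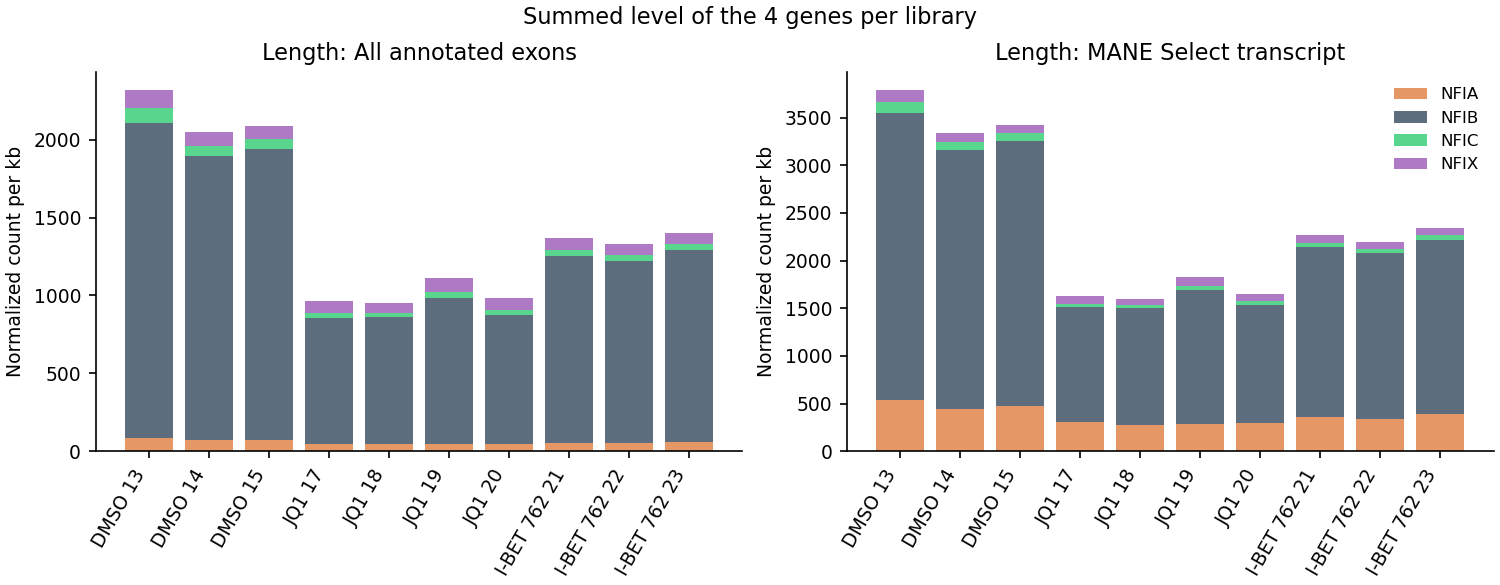
Summed normalized counts per kb (vertical axes, from 0) of NFIA, NFIB, NFIC and NFIX in each of the 10 libraries, stacked by gene, with exon length taken over all annotated exons (left) or from the MANE Select transcript (right). NFIB forms most of every bar under both lengths, and the summed level is highest in the 3 DMSO libraries.

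To examine the unequal change of the members independently of library scaling, log2 ratios between pairs of NFI genes were taken within each library and compared with a two-sided exact permutation test. The two-sided p-value was taken by doubling the smaller tail, and its smallest possible value was then 0.0571 for 3 against 4 libraries and 0.1 for 3 against 3, so in this form no ratio could pass a threshold of 0.05. Of the 6 pairs, 5 had non-overlapping ratios between JQ1 and vehicle, 5 between I-BET 762 and vehicle and 3 between JQ1 and I-BET 762. Over all pairs of tested genes above 0 in every library, 66.4%, 68.8% and 31.7% of pairs did not overlap in these comparisons, and the 6 NFI pairs share 4 genes, so the counts are not a result about the family. The ratio of NFIC to NFIX had the largest mean difference of the 6 pairs between JQ1 and vehicle. It was 0.37, 0.07 and 0.29 in vehicle libraries, -0.65, -0.78, -0.60 and -0.65 in JQ1 libraries and -0.26, -0.15 and -0.20 in I-BET 762 libraries. In reads not divided by length, NFIC therefore exceeded NFIX in every vehicle library and lay below it in every BETi library. Per kb, NFIX lay above NFIC in every library under each length used. The crossing of 0 therefore does not show a switch in which gene was more abundant. The mean difference of the NFIC to NFIX log2 ratio was -0.91 for JQ1 (exact permutation p = 0.0571, 0.129 after adjustment over 18 ratio comparisons) and -0.45 for I-BET 762 (exact permutation p = 0.1, adjusted 0.139). The ratio of NFIB to NFIX averaged 5.29 with vehicle, 4.50 with JQ1 and 5.08 with I-BET 762 in log2 units. The ratio of NFIB to NFIC overlapped between JQ1 and vehicle, at means of 5.17 and 5.05 (exact permutation p = 0.571). The comparisons share their vehicle libraries.

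**Figure D4:**
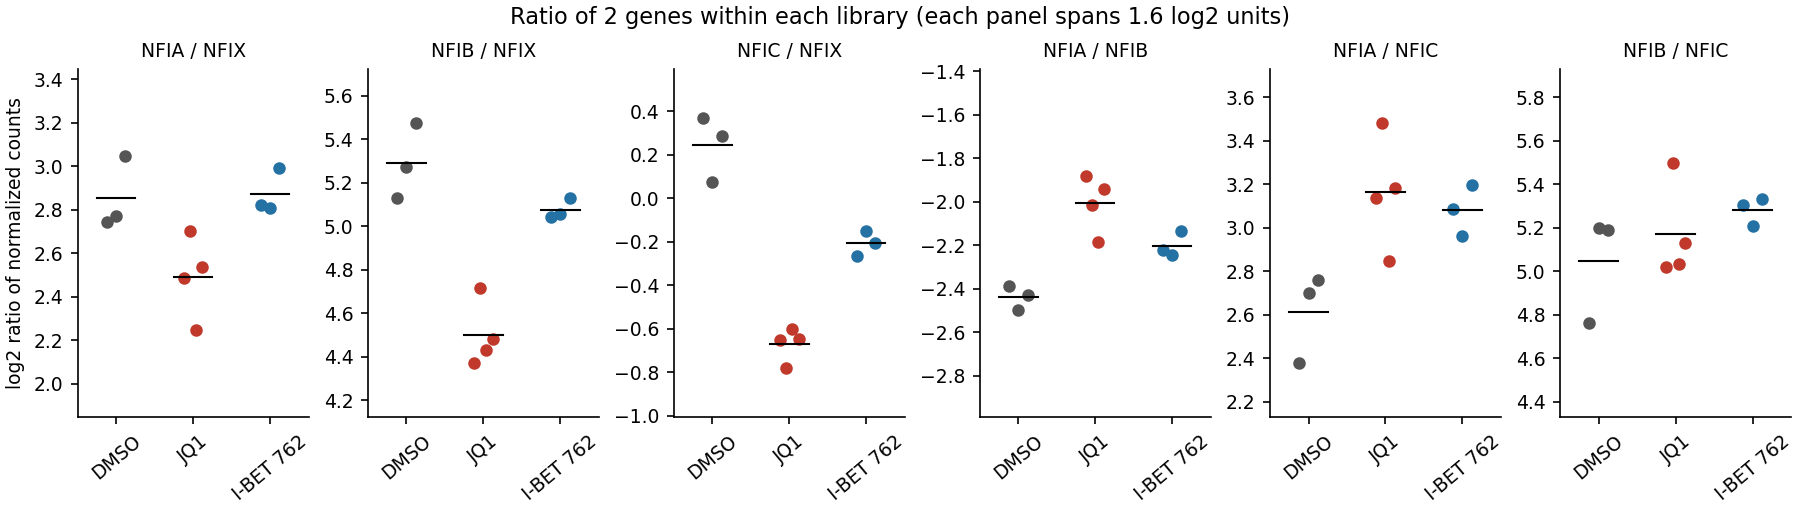
Log2 ratio of normalized counts of 2 NFI genes (vertical axes, each spanning 1.6 log2 units) within each library with DMSO, JQ1 or I-BET 762; points are libraries and lines are group means. The NFIC to NFIX ratio is above 0 in all DMSO libraries and below 0 in all BETi libraries. These counts are not divided by gene length, and per kb NFIX is above NFIC in every library.

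To describe TFs and regulators that pair with NFI proteins, 9 were listed and 5 were expressed highly enough to be tested. SKI, a corepressor that binds NFI proteins and SMADs, was the single DEG among them. Its normalized counts were 663 to 785 with vehicle, 997 to 1616 with JQ1 and 992 to 1046 with I-BET 762. It rose with JQ1 by a log2 fold change of 0.92 (SE 0.12, limma adjusted p = 4.45e-06), and the value with I-BET 762, 0.52, stayed under 1.5-fold. SP1, the factor of the GC box, had a log2 fold change of -0.46 with JQ1 and -0.26 with I-BET 762, and NR3C1, the glucocorticoid receptor, had -0.58 and -0.43. SP1 and NR3C1 were not DEGs, nor were SOX9 and POU2F1. With JQ1, 20% of the 5 were DEGs higher and 0% DEGs lower, beside 13.3% and 22.8% of all tested genes. With I-BET 762 both shares were 0%, beside 8.96% and 17.9% of all tested genes. The median log2 fold change of the 5 was -0.12 with each compound, beside 0.00756 for JQ1 and -0.000634 for I-BET 762 over all tested genes. Among the listed genes that were not tested, FOXA1, PGR and NKX2-1 had at most 12.1 normalized counts in any library.

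Of 20 genes listed as reported targets of NFI factors in other tissues, 10 were tested. With JQ1, 2 were higher and 5 were lower as DEGs, beside 13.3% and 22.8% of all tested genes. With I-BET 762, 2 were higher and 4 were lower, beside 8.96% and 17.9% of all tested genes. The median log2 fold changes of the 10 were -0.66 and -0.41, beside 0.00756 and -0.000634 over all tested genes. The list holds genes that NFI proteins activate and genes that they repress, so the counts carry no expected direction. The study itself had reported CDKN1A as higher and NFATC4 as lower in these same libraries. The list was also chosen with earlier results of these data known, so these shares are not independent evidence. The higher genes were the same with both compounds. CDKN1A, which encodes the cell cycle inhibitor p21, averaged 255 normalized counts with vehicle, 1389 with JQ1 and 593 with I-BET 762 (log2 fold changes 2.45 and 1.22, SE 0.079 and 0.085). CEBPA, a TF of adipocyte and myeloid differentiation, averaged 43.6, 183 and 96.7 (log2 fold changes 2.04 and 1.13, SE 0.136 and 0.146).

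Among the lower genes, NFATC4, a calcium-regulated TF, showed the widest change. It had 869 to 904 normalized counts with vehicle, 8.79 to 13.0 with JQ1 and 27.1 to 38.4 with I-BET 762. HES1, a repressor downstream of Notch, had 285 to 313 with vehicle, 166 to 201 with JQ1 and 139 to 183 with I-BET 762. BBX, an HMG-box gene, averaged 4190, 2687 and 2354. ENO3, the muscle enolase, averaged 90.2, 48.8 and 51.8. HES1, BBX, ENO3 and NFATC4 were DEGs with both compounds. COL1A2, a collagen chain, was lower as a DEG with JQ1, at a log2 fold change of -0.82 (SE 0.092), and had -0.47 with I-BET 762. EZH2, the histone methyltransferase of the Polycomb complex, had a log2 fold change of 0.28 with JQ1 and 0.12 with I-BET 762 and was not a DEG.

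To look for the NFI palindrome itself, all RefSeq promoter windows were searched for exact matches to TTGGCNNNNNGCCAA. The windows reached from 250 bases before the start to 50 bases past it, and 11244 of the tested genes had one. It occurred in 10 of 35116 windows (0.0285%) and belonged to 6 tested genes. The 6 sites are shown with 10 bases on each side, with the arms in capitals. None of the listed targets was among these genes, and sites outside the windows or with mismatches were not searched.
ACAT1 (chr11:108121449-108121483, plus strand): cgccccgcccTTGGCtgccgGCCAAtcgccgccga
ATP2B4 (chr1:203626724-203626758, plus strand): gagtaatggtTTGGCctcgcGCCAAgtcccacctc
HERC5 (chr4:88456953-88456987, plus strand): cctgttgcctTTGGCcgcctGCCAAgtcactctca
MIR99AHG (chr21:16420263-16420297, plus strand): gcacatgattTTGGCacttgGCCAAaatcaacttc
MYO10 (chr5:16936372-16936406, minus strand): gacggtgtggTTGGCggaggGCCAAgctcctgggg
ZNF530 (chr19:57599813-57599847, plus strand): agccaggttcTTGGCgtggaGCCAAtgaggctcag
Of these 6 genes, MIR99AHG, the noncoding host gene of a microRNA cluster, was a DEG and the others were not. It averaged 4076 ± 385 normalized counts with vehicle, 722 ± 17.8 with JQ1 and 1483 ± 106 with I-BET 762 (log2 fold changes -2.49 and -1.46, SE 0.066 and 0.071). The values with JQ1 were -0.41 for ATP2B4, a plasma membrane calcium pump, 0.22 for ZNF530, 0.18 for MYO10, an unconventional myosin, 0.10 for HERC5 and 0.01 for ACAT1, a mitochondrial thiolase. The share of DEGs lower with JQ1 was thus 16.7% of the 6, beside 22.8% of all tested genes.

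To see whether the genes around each NFI gene moved in the same way, tested genes starting within 1 Mb were collected. The start of a gene was its outermost annotated start. For NFIA this is 60865259, upstream of its MANE Select start at 61082561, and the genes collected around NFIA depend on this choice. There were 4 around NFIA, 3 around NFIB, 47 around NFIC and 54 around NFIX. Of the 108 in all, 19.4% were DEGs higher and 26.9% DEGs lower with JQ1, against 13.3% and 22.8% of all tested genes. With I-BET 762 the shares were 7.41% and 21.3%, against 8.96% and 17.9%. With JQ1, 3 of 4 genes around NFIA, 2 of 3 around NFIB, 12 of 47 around NFIC and 12 of 54 around NFIX were DEGs with lower expression. DEGs with higher expression numbered 0, 0, 6 and 15. Several of those around NFIX were ZNF zinc finger genes that lie close together, at -960 to -482 kb (negative upstream). The median log2 fold change with JQ1 was -1.26 around NFIA, -0.64 around NFIB, -0.02 around NFIC and 0.12 around NFIX.

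The nearest tested coding gene on each side of a member was also examined, with distances between gene starts. CELF5, an RNA-binding protein gene 89.7 kb upstream of NFIC, was lower with both compounds, averaging 124 normalized counts with vehicle, 53.7 with JQ1 and 61.4 with I-BET 762. DOHH, 186 kb downstream of NFIC, had log2 fold changes of 0.16 and -0.31 and was not a DEG. DAND5, a secreted antagonist of BMP and Nodal 30.3 kb upstream of NFIX, averaged 25.5, 1.86 and 4.96, and NACC1, 121 kb downstream, had -0.20 and -0.19 and was not a DEG. ZDHHC21, 294 kb upstream of NFIB, had -0.25 with JQ1 and -0.004 with I-BET 762. MPDZ, a PDZ-domain scaffold gene 1119 kb downstream of NFIB, was lower with JQ1 at a log2 fold change of -0.78 (SE 0.04) and had -0.17 with I-BET 762. C1orf87, 791 kb upstream of NFIA, averaged 11.8 normalized counts with vehicle and was at 0 in all JQ1 libraries, and TM2D1, 860 kb downstream, had -0.49 and -0.27 and was not a DEG. The other genes within 1 Mb with the lowest JQ1 values were GIPC3, averaging 32.2 with vehicle and 1.59 with JQ1, and NANOS3, averaging 16.4 and 1.33. The JQ1 means of GIPC3, NANOS3, DAND5 and C1orf87 lie below the limit of 3 reads, which is 2.73 to 3.30 normalized counts. The size of their changes is therefore poorly resolved.

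**Figure D5:**
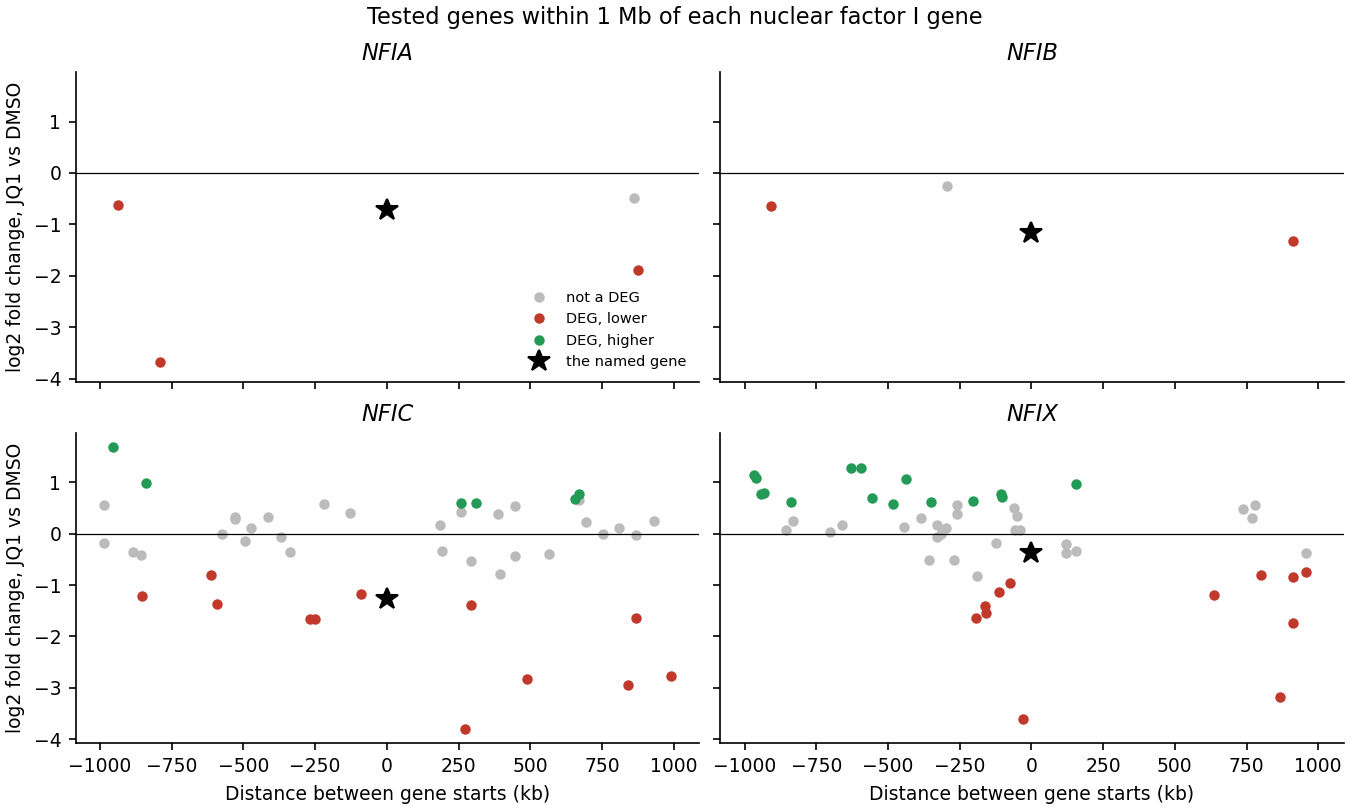
Log2 fold change with JQ1 (vertical axis) of tested genes by the distance of their start from the start of NFIA, NFIB, NFIC or NFIX (horizontal axis, kb, negative upstream); red and green points are DEGs, grey points are not, and the star is the NFI gene. NFIA and NFIB have 4 and 3 tested genes within 1 Mb, while NFIC and NFIX have 47 and 54, both higher and lower.

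Several genes overlap the NFI genes on the opposite strand, and the sources used here do not state whether the counting used strand. Of the overlapping genes listed in the files, the antisense gene NFIA-AS2 had at most 1 read in a library and the pseudogene RPL7AP47, inside NFIB, also had at most 1 read.

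To find genes with the most similar course over the 10 libraries, each gene was centred on its own mean and the root mean square (RMS) difference in log2 units was taken. Nearest to NFIB were GPR162 (RMS 0.057), LPP (0.058) and KLF7 (0.066). Nearest to NFIA were KCNMA1 (0.052), DENND2B (0.056) and ANKRD36C (0.057). Nearest to NFIC were TACC2 (0.12), CELSR3 (0.121) and MAST1 (0.127). The closest pair of members was NFIB and NFIC, with 0.19, where NFIB ranked 67th for NFIC and NFIC ranked 597th for NFIB. Nearest to NFIX were ABCA2 (0.097), EHD2 (0.099) and PLXND1 (0.104). None of these was a DEG with either compound, which follows in part from choosing them by likeness to NFIX. The next closest pair of members was NFIA and NFIB, with 0.196, where NFIB ranked 1500th for NFIA and NFIA ranked 654th for NFIB. NFIX was at rank 2163 for NFIA, 2942 for NFIB and 2144 for NFIC, so many other genes were closer to each member. The points share libraries and scaling, so these values describe likeness and no more.

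The cell line was checked against marker genes. Of 8 smooth muscle markers 7 were listed, and their summed normalized count was 20342 to 20969 with vehicle, 10618 to 11230 with JQ1 and 11758 to 12327 with I-BET 762. MYH11 was not listed and ACTG2 was at or near 0. Of the 6 tested, 5 were DEGs lower with each compound, beside 22.8% of all tested genes with JQ1 and 17.9% with I-BET 762. DES averaged 187 with vehicle, 7.79 with JQ1 and 20.1 with I-BET 762. SMTN, which was not a DEG, went the other way, averaging 2324, 2644 and 2657. The 5 epithelial markers summed to 1212 to 1271 with vehicle, 511 to 602 with JQ1 and 497 to 544 with I-BET 762. The 4 mesenchymal markers, led by VIM, summed to 127752 to 136903 with vehicle, 159569 to 171847 with JQ1 and 136538 to 140092 with I-BET 762. Of these, COL1A1 and COL1A2 were lower and FN1 was higher as DEGs with JQ1, at log2 fold changes of -3.44, -0.82 and 0.95, and VIM had 0.44. Leukocyte and endothelial markers each summed to at most 7.40. The part of these marker changes in the NFI values was not tested.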

How the data were processed

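RNA-sequencing of total RNA from SK-UT-1 cells was analysed from 1 deposited table. Per the labels and the methods of the study, the authors prepared strand-specific libraries, trimmed reads with Trimmomatic, aligned them to hg38 with HISAT2 2.2.1, counted them with featureCounts 2.0.3 and a Gencode annotation, and normalized counts with DESeq2; the strand setting of the counting is not given in the sources used here. The authors deposited each value on a log2 scale, after adding 1 to the normalized count, and values ran from 0 to 20.48. The 2 labelled libraries without values were not analysed here; the methods of the study mention that outlying samples were left out.

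Normalized counts were obtained by reversing the log2 scale. In each library 99.8% of values were whole multiples of 1 step, within 0.1 reads, so reads and totals (35564586 to 39658989 per library) were recovered. A count of 3 reads, the limit used for low values, is 2.73 to 3.30 normalized counts, and such limits cover counting error only. Replicates differed by more than sampling noise (chi-square per gene 2.77 to 22.1), so all were kept as separate samples.

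The deposited log2 values were tested with limma 3.58.1 (R 4.3.3), with an intensity trend and all 3 groups in 1 fit, on 14839 genes with at least 10 normalized counts in at least 3 libraries. A DEG had a Benjamini-Hochberg adjusted p-value below 0.05 and a change over 1.5-fold. Fold changes are on the log2(value + 1) scale, which understates changes of low genes. The script was tested on simulated data. Ratios within libraries were compared with two-sided exact permutation tests (smaller tail doubled, scipy 1.17.1). Replicate numbers differ between groups, so no pairing exists. Positions and lengths come from Gencode V44 (hg38), in which 94.8% of symbols matched once, and promoters from RefSeq windows of GRCh38.p14.

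Named were the 4 NFI genes, list genes past the threshold with a vehicle comparison, overlapping and nearest tested coding genes, the 3 genes most like each member and up to 4 genes of the neighbour and palindrome sets. All 6 palindrome genes, and list genes that were not DEGs, were named outside this rule after their values were seen, as was the GC box. The members and lists were chosen with earlier results of these data known. Alternatives covered the pseudocount, the filter, the scaling, the trend, the samples fitted, limma-voom on the recovered reads, the thresholds, the gene length and each library left out. 1 listed partner gene is not reported here.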

Additional observations from a re-analysis of the deposited data

How the results depend on the processing

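Over 20 settings of the fit, NFIA, NFIB, NFIC and NFIX kept a negative change with both BETis, and with the thresholds of the report the DEG calls of these genes against vehicle did not change. Adjusted p alone, without the 1.5-fold threshold, gave 4 members with I-BET 762 and 2 between JQ1 and I-BET 762, while a threshold of 2-fold gave 0 with I-BET 762. With JQ1 the same 2 thresholds gave 4 and 2 members. Scaling the libraries to equal totals moved the median of all genes by -0.18 with JQ1, -0.10 with I-BET 762 and -0.09 between the compounds. It gave 1 member, NFIB, as a DEG between the compounds (log2 difference -0.59) and turned that of NFIX to -0.0094. It also changed the DEGs with JQ1 from 1979 higher and 3379 lower to 1212 and 4227, and those between compounds from 256 and 532 to 169 and 781. Requiring a mean of at least 100, which tested 11072 genes, gave 1914 lower with JQ1, 1447 lower and 891 higher with I-BET 762, and 154 higher and 264 lower between compounds; leaving the filter out tested 22784 genes. The adjusted p of NFIC between compounds ranged from 0.0263 to 0.154 over settings.

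The share of the family per length in vehicle libraries, with the longest transcript, was 3.24% for NFIA, 90.6% for NFIB, 2.86% for NFIC and 3.35% for NFIX. With the MANE Select transcript, added after the data were seen, it was 13.8%, 80.6%, 2.62% and 2.94%. Leaving out each library turned the sign of 3 small ratio differences: NFIA to NFIC between compounds ranged from -0.0242 (without JQ1 library 18) to 0.19, NFIA to NFIX with I-BET 762 from -0.0396 (without I-BET 762 library 23) to 0.12, also turning without vehicle libraries 13 (-0.0353) and 14 (-0.0222), and NFIB to NFIC with JQ1 from -0.0235 (without vehicle library 13) to 0.19. Where a library was left out, the group with fewer samples was assumed to vary like the others. The exact tests of ratios, which doubled the smaller tail, could not reach 0.05 in that form. No paired analysis was possible because the groups share no replicate numbers.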
